A study of Mus musculus with 24 samples.

Results

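Each gene was asked whether the caNrf2 transgene moved its RNA by the same amount in isolated colon epithelial cells as in the whole colon wall. The quantity is a difference of 2 log2 fold changes, the change between transgenic and control epithelial cells minus the change between transgenic and control wall, and a value above 0 means a change further upward in epithelial cells. It was taken from 16 of the 24 libraries of the series, 4 in each of 4 groups that received no dextran sulfate sodium, and the 8 wall libraries given that agent were left out. All mice were C57Bl/6 and carried VilCre, a Cre recombinase under the villin promoter, which is active in gut epithelium. The controls carried VilCre alone, and the transgenic mice, labelled VilCre-CMVcaNrf2, also carried caNrf2, a transgene for a constitutively active NRF2 that Cre switches on. The epithelial groups hold colon epithelial cells of either genotype, and the wall groups hold pieces of whole colon wall, in which epithelium, muscle, vessels and immune cells are mixed. The sources used here do not give age, the hour of sampling, or how epithelial cells were isolated. The labels do not say that replicates were separate mice, so p-values cover the spread among these libraries alone, and part of it may be technical. The series text speaks of triplicates, and 4 libraries per group were used here.

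NRF2, encoded by Nfe2l2, is held in the cytoplasm by KEAP1, which with the CUL3 ligase marks it for the proteasome. When KEAP1 is modified by reactive compounds, or when NRF2 lacks the part that KEAP1 binds, NRF2 enters the nucleus, pairs with a small MAF protein and binds antioxidant response elements. Its known targets import cystine, make glutathione, conjugate and export drugs, reduce quinones and supply NADPH. In the gut the epithelium meets dietary and bacterial toxins first, and these targets are part of its detoxifying outfit.

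The stretches below are shown because they hold the core of an antioxidant response element, TGACNNNGC, in the promoters of genes on which the comparison turns. They come from RefSeq windows of 250 bases before to 50 bases after each start, on GRCm38.p6, searched on both strands, and capitals mark the core, which reads GCNNNGTCA on the other strand. The core stood in 12.4% of all 32851 windows and in at least 1 window of 17% of the 10624 tested genes that had one. Nfe2l2 is NRF2 itself (chr2:75704865-75704913, minus strand), Gclm the regulatory subunit of the enzyme that starts glutathione synthesis (chr3:122245393-122245461, plus strand), Gsta3 a glutathione transferase (chr1:21240434-21240502, plus strand), Txnrd1 a thioredoxin reductase (chr10:82859084-82859152, plus strand) and Abcc2 an export pump (chr19:43782180-43782248, plus strand).
Nfe2l2: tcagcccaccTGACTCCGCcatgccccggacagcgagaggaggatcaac
Gclm: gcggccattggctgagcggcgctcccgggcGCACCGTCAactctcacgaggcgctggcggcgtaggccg
Gsta3: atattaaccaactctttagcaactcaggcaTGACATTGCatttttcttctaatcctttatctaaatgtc
Txnrd1: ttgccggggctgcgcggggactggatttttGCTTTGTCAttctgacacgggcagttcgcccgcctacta
Abcc2: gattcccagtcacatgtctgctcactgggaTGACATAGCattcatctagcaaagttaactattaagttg
The first base of the core lies 240, 134, 121, 92 and 98 bases before the start in this order. The core stood in 4 of 11 NRF2 regulator genes, 3 of 7 glutathione synthesis genes, 4 of 20 glutathione transferases, 3 of 7 export pumps, 2 of 15 quinone, carbonyl, heme and iron genes, 4 of 19 peroxidases and thioredoxins, 3 of 7 NADPH producers and 3 of 29 other drug enzymes that had a window. A match is a description of letters, and no binding was measured.

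Before the results, 3 libraries have to be named because they stand apart. Levels are CPM, counts scaled to a common library total. The summed level of 14 absorptive colonocyte marker genes was 21030 CPM in epithelial control replicate 3 and 23520 CPM in epithelial transgenic replicate 1, and between 1485 and 5248 CPM in the other 6 epithelial libraries. In the same 2 libraries 12 endothelial markers summed to 14.5 and 17.3 CPM, against 68.9 to 149.9 CPM in the other 6. The library labelled wall transgenic replicate 2 had a summed level of the glutathione synthesis genes of 623.0 CPM, next to the wall controls (457.4 to 622.9 CPM) and below the other transgenic wall libraries (1104 to 1720 CPM). Epithelial libraries held 6683785 to 15399870 counts and wall libraries 21493139 to 154335999, so low genes are measured with less precision in epithelial cells. The epithelial labels were checked against markers: pan-epithelial markers summed to 12160 to 27430 CPM in epithelial libraries and 15370 to 24970 CPM in wall, so their ranges overlapped. The absorptive colonocyte markers summed to 5940 to 13550 CPM in wall, above the 6 other epithelial libraries. Goblet cell markers summed to 15590 to 30590 CPM in epithelial libraries and 4285 to 7439 CPM in wall, and smooth muscle and pacemaker markers to 377.7 to 514.8 CPM against 11960 to 16360 CPM. In bulk RNA, fewer cells of a type and less RNA per cell cannot be told apart.

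No gene differed between the tissues past the threshold. In edgeR's quasi-likelihood test with Benjamini-Hochberg adjustment, 0 of 15073 genes (0%) had an adjusted p below 0.05, and the smallest adjusted p was 0.161. At an unadjusted p below 0.05 there were 1203 genes (7.98%), where chance alone gives 5%, with 420 above 0 (2.79%) and 783 below 0 (5.19%). The median difference was -0.04 and its median 95% interval reached 0.75 log2 units to either side, without adjustment for the number of genes. In simulated counts the same test recovered 14 of 100 genes changed 2-fold and 56 of 100 changed 4-fold, so many differences of such size could be missed. The count of 0 depended on the tool and on the libraries. DESeq2 called 79 genes (32 above and 47 below 0), and limma voom called 0. The edgeR test called 70 genes (19 above and 51 below 0) without the 2 epithelial libraries that stand apart, and 17 without all 3. Of the 79 and the 70 genes, 25 were in both sets, 31.6% of the first and 35.7% of the second.

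The 2 components came from the same fit. In epithelial cells 107 genes (0.710%) passed the threshold, 19 higher (0.126%) and 88 lower (0.584%) in transgenic cells, and in wall 0 genes passed (smallest adjusted p = 0.0763). At an unadjusted p below 0.05 there were 2360 genes (15.7%) in epithelial cells, 5.45% of all genes higher and 10.2% lower, and 1022 (6.78%) in wall, 3.70% higher and 3.08% lower. The joint fit shares its estimate of the spread of each gene between the tissues. Fitted alone, which leaves fewer libraries to estimate the spread in either tissue, the 8 epithelial libraries gave 0 calls (smallest adjusted p = 0.219). The 8 wall libraries fitted alone gave 10. With limma voom and weights per tissue, 0 genes passed in epithelial cells and 95 in wall. DESeq2 called 712 genes in epithelial cells and 162 in wall, and limma voom 7 and 19. With the correction for GC content described further on, edgeR's test called 7 in epithelial cells. Where a single gene is said below to have passed, fallen or risen in epithelial cells, that rests on edgeR's joint fit without this correction. Over the 15073 genes the fitted changes in the 2 tissues, which share no library, had a Pearson r of 0.15 and a Spearman rho of 0.20, given as a description over genes, which are not independent replicates. In 4 cases a wall and an epithelial library of the same genotype carry the same file number, and the sources used here do not say whether these came from the same mice. The deviations of these 4 pairs from their group means correlated from -0.32 to 0.28. Transgenic and control libraries did not overlap for 6.42% of genes in epithelial cells (2.22% higher, 4.19% lower) and 6.81% in wall (3.91% higher, 2.90% lower). For 84 genes (0.557%) the transgenic and control libraries did not overlap in either tissue and lay in the same direction, 44 higher (0.292%) and 40 lower (0.265%). For 11 genes (0.0730%) they did not overlap and lay in opposite directions.

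**Figure D1:**
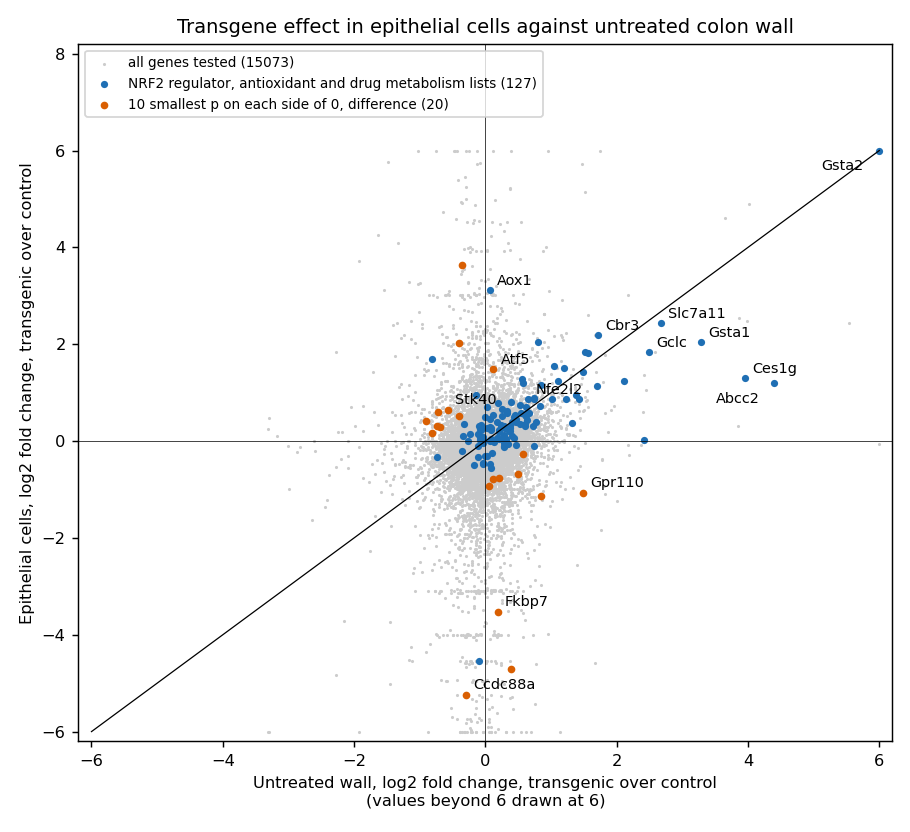
Fitted log2 fold change between transgenic and control libraries in untreated wall (x axis) and epithelial cells (y axis) for 15073 genes, with 127 genes of the NRF2 lists in blue, the 20 genes with the smallest p in the difference in orange, and a line of equal change. Most of the blue genes with large changes lie in the upper right, such as Slc7a11 at 2.67 and 2.43, while Abcc2 and Ces1g lie far to the right of the line and Aox1 above it; values over 6 in size are drawn at 6.

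The NRF2 pathway leaned upward in both tissues, with differences centred on 0 when all 16 libraries were used. Its 8 lists (regulators, glutathione synthesis, glutathione transferases, peroxidases and thioredoxins, quinone, carbonyl, heme and iron genes, NADPH producers, export pumps, and other drug-metabolizing enzymes) hold 129 genes, of which 127 were tested. Their median change was 0.32 in epithelial cells and 0.29 in wall, beside -0.03 and -0.01 over all genes tested, and their median difference was 0.00. The fitted change was above 0 in both tissues for 87 of the 127 (68.5%), compared with 25.7% of all genes. At an unadjusted p below 0.05, 25 of them (19.7%) were higher in both tissues, compared with 117 of all genes (0.776%). The lists were chosen with earlier results of these data known and include Nfe2l2 itself, so these shares are a description and not a test. In the difference 0 of 127 passed the threshold. At an unadjusted p below 0.05 there were 4, 1 above and 3 below 0, beside 2.79% and 5.19% of all genes. For 46 of the 127 the 95% interval of the difference lay wholly within 1 log2 unit of 0, and for the other 81 it reached a difference of 2-fold or more. Without the 3 libraries that stand apart, Gclc, Gclm, Nqo1 and Gsta1 lay further below 0, at -1.27, -1.04, -1.29 and -1.44. Their adjusted p in edgeR's test was 0.192, 0.169, 0.143 and 0.263 in that order. Nfe2l2, Cbr3 and Hmox1 lay above 0 there, at 0.11, 0.06 and 0.34, and the median over the lists was not taken in that setting.

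Nfe2l2 itself was measured first, as a check of the labels. It was at 144.5, 167.0, 195.0 and 174.3 CPM in control and 360.0, 350.3, 290.5 and 233.8 CPM in transgenic epithelial cells. The wall controls held 98.4, 128.5, 119.7 and 144.8 CPM and the transgenic wall samples 188.3, 146.2, 200 and 235.0 CPM. Every transgenic library lay above every control library of its tissue, with wall transgenic replicate 2 closest to the controls. The log2 change was 0.86 in epithelial cells, which passed (adjusted p = 0.0391 in edgeR's test), and 0.65 in wall, and the difference was 0.21 with a 95% interval of -0.31 to 0.73. The sources used here do not say whether Nfe2l2 counts include transgene reads. Of the 11 regulator genes 5 had a difference above 0 and 6 below, with a median of -0.06. Cul3, the ligase scaffold that works with KEAP1, was at 98.0 to 109.0 CPM in control and 62.7 to 85.7 CPM in transgenic epithelial cells, and at 95.6 to 116.3 and 101.0 to 112.8 CPM in wall. Its groups did not overlap in epithelial cells and did in wall, and the difference was -0.44 (interval -0.78 to -0.09, unadjusted p = 0.016, adjusted p = 0.529). After a correction for GC content, which is described further on, it was -0.03 (unadjusted p = 0.875). Bach1, a repressor that competes with NRF2 for its sites, had a difference of 0.41 (interval -0.22 to 1.04), and 0.18 without the 3 libraries that stand apart.

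In glutathione synthesis several genes were higher in transgenic libraries of both tissues. Of 10 genes, 9 in epithelial cells and 5 in wall had a log2 change above 0. At an unadjusted p below 0.05, 6 were higher in epithelial cells and 5 in wall, beside 5.45% and 3.70% of all genes. In the difference 0 passed, and the list's median difference was -0.03 beside -0.04 over all genes. Slc7a11, the cystine importer, was at 9.46, 9.23, 1.28 and 6.93 CPM in control and 44.1, 50.1, 30.1 and 20.1 CPM in transgenic epithelial cells. Wall levels were 4.39, 3.74, 2.95 and 2.72 CPM without and 37.0, 4.75, 34.4 and 11.9 CPM with the transgene. The groups did not overlap in either tissue, and the wall library closest to the controls was again transgenic replicate 2. The log2 changes were 2.43 and 2.67, and the difference of -0.24 had an interval of -1.95 to 1.46. Its sign turned with the method (0.74 with limma voom and 0.15 after a correction for GC content), so no direction is given. Gclc, the catalytic subunit of the enzyme that starts glutathione synthesis (chr9:77754535-77794489), was at 97.1, 90.5, 145.9 and 119.2 CPM in control and 719.0, 467.5, 231.4 and 190.1 CPM in transgenic epithelial cells. Among wall libraries, controls had 85.9, 106.3, 69.1 and 75 CPM and transgenic ones 729.2, 103.3, 687.2 and 375.5 CPM. The groups did not overlap in epithelial cells, and in wall only transgenic replicate 2 lay within the control range. The log2 changes were 1.83 and 2.49, and the difference was -0.67 (interval -2.08 to 0.75). Without the 3 libraries that stand apart it was -1.27 (adjusted p = 0.192). Gclm, the regulatory subunit, had log2 changes of 1.13 and 1.70. Slc3a2, the partner chain of Slc7a11, and Chac1, which breaks glutathione down, had the smallest p of the list, with differences of 0.41 and 2.52 (unadjusted p = 0.052 and 0.107). For Slc3a2 it was 0.26 without the 3 libraries that stand apart. For Chac1 it was 0.17 with limma voom and ran from 0.16 to 3.16 over the alternatives.

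The glutathione transferases, which attach glutathione to drugs and lipid peroxides, had log2 changes with a median of 0.41 in epithelial cells and 0.35 in wall. Of 22 genes 9 and 7 were higher at an unadjusted p below 0.05, beside 5.45% and 3.70% of all genes. Gsta3 and Gstm1 passed in epithelial cells (adjusted p = 0.0407 and 0.0391 in edgeR's test), and 0 of the list passed in the difference, whose median was 0.16. Gstm1 was at 293.5 to 339.6 CPM in control and 453.3 to 1261 CPM in transgenic epithelial cells, and at 273.4 to 471.3 and 457.3 to 1162 CPM in wall. The epithelial groups did not overlap, and the wall groups did through transgenic replicate 2. The difference for Gstm1 was 0.30 (interval -0.59 to 1.18) and for Gsta3 0.32 (interval -0.80 to 1.44), and both turned below 0 without the 3 libraries that stand apart (-0.09 and -0.28). Gsta1 had log2 changes of 2.04 and 3.29 and a difference of -1.25 (interval -3.36 to 0.87), and Gstz1 a difference of -0.29. Over the alternatives Gsta1 ran from -2.12, without epithelial transgenic replicate 1, to -0.21. Gsta2 had 0 counts in all 4 control epithelial libraries and 96, 17, 44 and 0 in the transgenic ones, and in wall 5, 4, 5 and 3 counts in controls and 343, 5, 371 and 786 in transgenic samples. Against a floor of 3 counts over the control group it was at least 49.8-fold higher in transgenic epithelial cells, and no difference between tissues can be given for it. Gsta1 and Gsta2 are near copies, and the sources used here do not say how their shared reads were split. In epithelial cells Gsta2 lies above the list's median at that bound as it does when fitted.

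Peroxidases and thioredoxins had smaller log2 changes, with medians of 0.25 and 0.08. Of 20 genes 4 in epithelial cells and 1 in wall were higher at an unadjusted p below 0.05, beside 5.45% and 3.70% of all genes. The wall count lay near the share of all genes, and the median difference was 0.08. Txnrd1, thioredoxin reductase, was at 260.7 to 323.8 CPM in control and 305.9 to 545.5 CPM in transgenic epithelial cells, with log2 changes of 0.52 and 0.26 in wall and a difference of 0.26 (interval -0.36 to 0.88), or 0.10 without epithelial transgenic replicate 1. Srxn1, sulfiredoxin, had a difference of 0.32 that became -0.26 without epithelial transgenic replicate 1. Gpx2, the glutathione peroxidase of the gut epithelium, had 0.68 (interval -0.24 to 1.60), and Txnrd2, the mitochondrial reductase, 0.39. The 7 NADPH producers had median changes of 0.46 and 0.37, with all 7 above 0 in both tissues, and a median difference of 0.08. G6pdx, which opens the pentose phosphate pathway, had a difference of 0.22 and Me1, malic enzyme, 0.43, neither with an unadjusted p below 0.05.

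Quinone, carbonyl, heme and iron genes had median changes of 0.63 in epithelial cells and 0.55 in wall. Of 18 genes 10 and 8 were higher at an unadjusted p below 0.05, beside 5.45% and 3.70% of all genes. The median difference was 0.12, with 1 gene above 0 at that p, beside 2.79% of all genes. Nqo1, the quinone reductase, was at 31.1, 40.2, 88.0 and 42.4 CPM in control and 225.0, 108.9, 68.3 and 72.0 CPM in transgenic epithelial cells. The wall controls held 24.3, 28.9, 21 and 12.0 CPM and the transgenic wall samples 122.6, 21.2, 104.6 and 122.0 CPM. The epithelial groups overlapped through control replicate 3 and the wall groups through transgenic replicate 2. The difference was -0.87 (interval -2.35 to 0.60). It ran from -1.38, without epithelial transgenic replicate 1, to -0.43 over the alternatives. Cbr3, a carbonyl reductase, had log2 changes of 2.18 and 1.72, Hmox1, heme oxygenase, 1.19 and 0.57, and Slc48a1, a heme transporter, 0.29 and 0.07.

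Aox1, an aldehyde oxidase (chr1:58029969-58106410), was the gene of these lists whose change lay furthest toward epithelial cells. It had 5, 6, 0 and 0 counts in control and 15, 48, 28 and 7 counts in transgenic epithelial cells. Wall levels were 3.50, 3.61, 2.70 and 5.39 CPM without and 5.13, 2.88, 4.01 and 4.04 CPM with the transgene. The epithelial groups did not overlap and the wall groups did. The log2 changes were 3.11 and 0.07, and the difference was 3.03 (interval 1.04 to 5.02, unadjusted p = 0.00527, adjusted p = 0.435). Its adjusted p was 0.0345 in DESeq2, 0.494 with limma voom and 0.608 in edgeR's test with GC correction. Aox1 was called in 2 of the 33 alternatives that give a difference, over which it ran from 2.37 to 3.68. Pooled over the group, transgenic epithelial cells held 2.18 CPM, below every wall library.

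Export pumps and other drug enzymes were where single genes leaned toward the wall. Abcc2, the pump that sends glutathione conjugates out of the cell, was at 3.89, 4.29, 2.95 and 3.20 CPM in control wall and 113.4, 6.16, 103.6 and 76.7 CPM in transgenic wall. In epithelial cells it had 4, 7, 16 and 6 counts in controls and 70, 15, 0 and 0 counts in transgenic samples, or 5.27, 1.45, 0 and 0 CPM. The wall groups did not overlap, and the epithelial groups did, with 2 transgenic libraries at 0. The log2 changes were 1.2 in epithelial cells and 4.39 in wall, and the difference was -3.19 (interval -6.14 to -0.24, unadjusted p = 0.0358, adjusted p = 0.608). Over the alternatives it ran from -5.07 to -2.72 and did not pass in any of the 33 that give a difference. Ces1g, a carboxylesterase, was at 8.65, 5.60, 8.08 and 7.04 CPM in control wall and 114.1, 6.88, 124.4 and 210.1 CPM in transgenic wall. Epithelial controls held 28.7, 32.7, 239.7 and 44.3 CPM and transgenic epithelial cells 547.4, 140.1, 82.3 and 79.6 CPM. The highest value of each epithelial group was in the library that stands apart. The difference was -2.65 (interval -5.19 to -0.12, unadjusted p = 0.0414, adjusted p = 0.611), and without the 3 libraries that stand apart it was -2.79 with an adjusted p of 0.00912. That was the 1 call for Ces1g in the 33 alternatives, over which the difference ran from -3.73 to -1.18. Adh7, an alcohol dehydrogenase, had log2 changes of 0.03 in epithelial cells, where it had 12 counts in controls and 14 in transgenic samples, and 2.42 in wall, and a difference of -2.39 (interval -5.02 to 0.24).

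In contrast, the pump Abcc4 was at 21.8, 20.7, 10.7 and 21.6 CPM in control and 88.5, 80.0, 58.1 and 37.2 CPM in transgenic epithelial cells, and at 33.0 to 36.1 and 30.5 to 135.1 CPM in wall. It passed in epithelial cells (log2 change 1.82, adjusted p = 0.0405 in edgeR's test), and the change was 1.57 in wall. Its difference was 0.25 (interval -0.83 to 1.34), and it was -0.09 without the 2 epithelial libraries that stand apart. Abcc5 had a difference of 0.60, which was 0.14 without epithelial transgenic replicate 1. Over the 9 pumps the median difference was -0.17, and over the 30 other drug enzymes it was -0.32, with 24 below 0 and 6 above. Of these 30 enzymes 7 were higher in transgenic wall and 2 in transgenic epithelial cells at an unadjusted p below 0.05, beside 3.70% and 5.45% of all genes. The summed level of the drug enzymes was 9990 and 10220 CPM in the 2 epithelial libraries rich in colonocyte markers and 2378 to 4210 CPM in the other 6, and the part of that split in the difference was not tested.

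**Figure D2:**
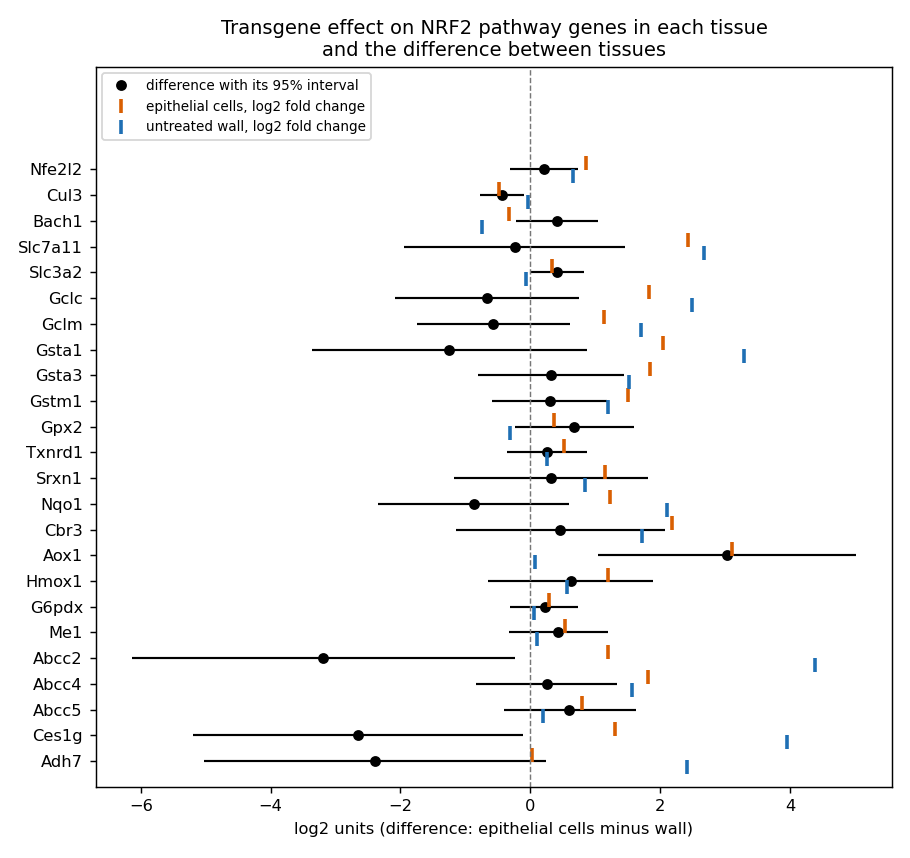
Epithelial minus wall log2 change (black points, with 95% intervals) for 24 genes of the NRF2 lists, with the log2 fold change in each tissue as an orange (epithelial) or blue (wall) tick. Most intervals cross 0, and those of Cul3, Abcc2 and Ces1g lie below it and that of Aox1 above it, before adjustment for the number of genes; with GC correction the value for Cul3 was -0.03.

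**Figure D3:**
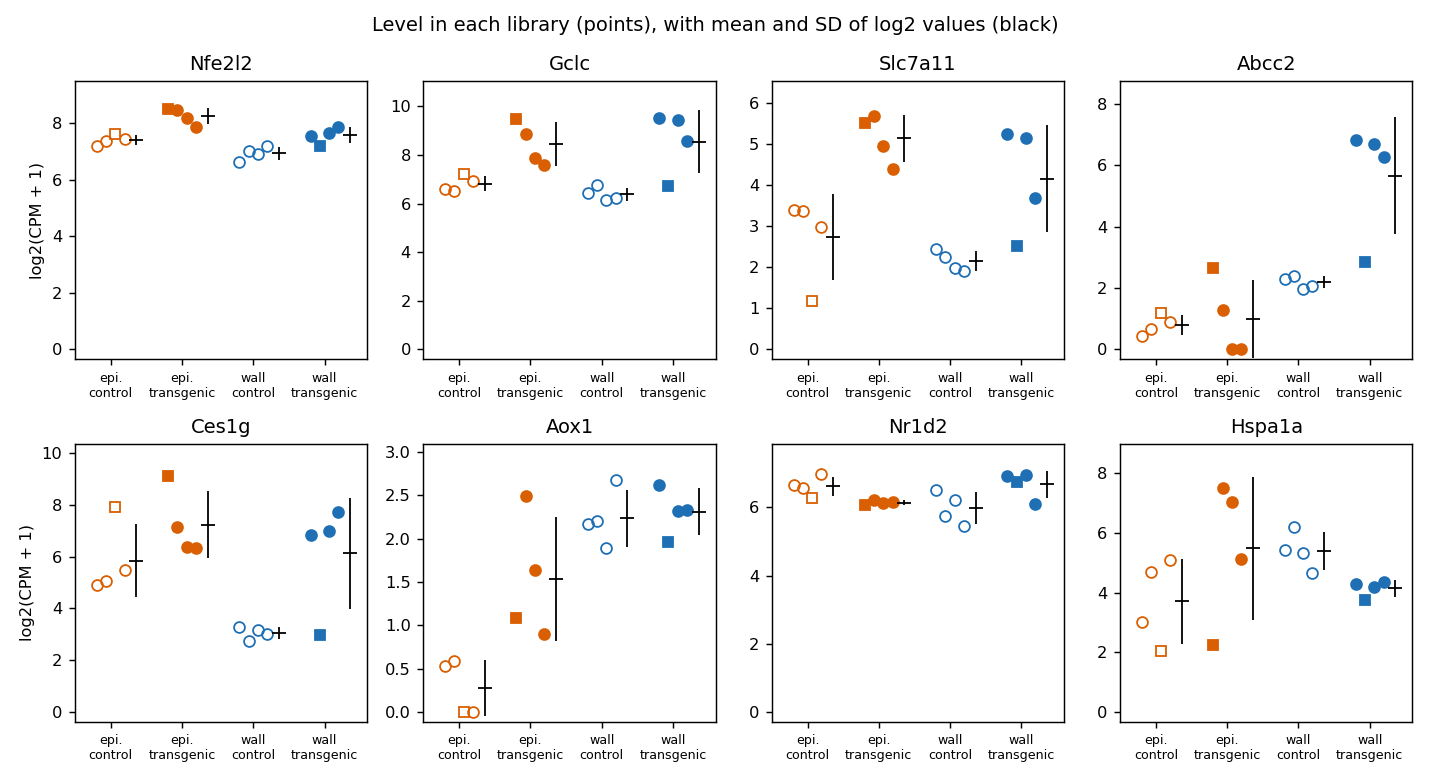
Level of 8 genes in each of the 16 libraries as log2(CPM + 1), with the mean and SD of each group in black; open symbols are controls, filled ones transgenic, and squares mark the 3 libraries that stand apart. Gclc and Slc7a11 are higher in transgenic libraries of both tissues, with wall transgenic replicate 2 near the controls. Abcc2 is high in 3 transgenic wall libraries, and in epithelial cells it is low apart from transgenic replicate 1, which lies above the wall controls. Hspa1a spreads widely among epithelial libraries.

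The proteasome is the machine that degrades NRF2 itself, and some of its subunit genes are known NRF2 targets. Of 38 tested subunit genes 25 had a difference above 0 and 13 below, with a median of 0.12. At an unadjusted p below 0.05 there were 2, both above 0, beside 2.79% of all genes above 0 and 7.98% in either direction. Psmb5, a catalytic subunit, was at 67.0 to 97.1 CPM in control and 99.3 to 130.9 CPM in transgenic epithelial cells, without overlap, and at 53.4 to 86.0 and 66.7 to 80.9 CPM in wall. Its difference was 0.48 (interval 0.02 to 0.94, unadjusted p = 0.0432, adjusted p = 0.612). Psmb11, a catalytic subunit known from the thymus, had 1.35 (unadjusted p = 0.044) at levels of at most 5.53 CPM in every library.

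The 20 circadian clock genes tested had a median change of -0.29 in epithelial cells, with 15 below 0, and of 0.11 in wall, with 12 above and 8 below 0. The clock runs as a loop in which CLOCK and ARNTL switch on their own repressors and output factors, and levels depend on the hour of sampling, which the sources used here do not give. At an unadjusted p below 0.05, 2 were higher and 7 lower in transgenic epithelial cells, beside 5.45% and 10.2% of all genes, and none passed the threshold. In wall 5 were higher and 3 lower at that p, beside 3.70% and 3.08%. The median difference was -0.40, with 14 below 0. At an unadjusted p below 0.05, 3 lay below and 1 above, beside 5.19% and 2.79% of all genes. Nr1d2, a repressor in the loop, was at 98.9, 94.4, 76.2 and 124 CPM in control and 66.0, 74.0, 68.9 and 69.6 CPM in transgenic epithelial cells. Among wall libraries, controls had 89.6, 52.6, 73.5 and 42.5 CPM and transgenic ones 119.9, 105.9, 122.2 and 67.9 CPM. Transgenic libraries lay below all controls in epithelial cells, while the wall groups overlapped through transgenic replicate 4. The difference was -1.19 (interval -1.85 to -0.52, unadjusted p = 0.00169, adjusted p = 0.343), and after a correction for GC content it was -0.90. Nr1d1, its relative, had -0.88 (interval -1.57 to -0.18, adjusted p = 0.532), and Dbp, an output factor, -1.39 (interval -2.93 to 0.16), with log2 changes of 1.06 in epithelial cells and 2.45 in wall. Hlf, another output factor, had 3, 24, 1 and 2 counts in control and 1, 1, 1 and 2 counts in transgenic epithelial cells, so its epithelial change rests on control replicate 2. In wall it was at 3.18 to 6.24 CPM in controls and 8.04 to 15.8 CPM in transgenic samples, without overlap. Its difference was -3.96 (unadjusted p = 0.0013, adjusted p = 0.343), and -2.56 with limma voom.

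Immediate early and heat shock genes, which respond within minutes to handling, heat and growth signals, had a median change of -0.06 in epithelial cells and -0.77 in wall. Of the 20 genes 18 had a difference above 0, with a median of 0.65. At an unadjusted p below 0.05 there were 4, all above 0, beside 2.79% of all genes. In wall the transgenic and control libraries did not overlap for 7 of the 20, all 7 lower in transgenic samples, where 6.81% of all genes did not overlap. Their summed level was 3237 to 3650 CPM in transgenic wall and 3605 to 4533 CPM in control wall. In epithelial cells it was 4178 and 3197 CPM in the 2 libraries that stand apart, one of each genotype, and 9966 to 12700 CPM in the other 6. Hspa1a, the inducible heat shock chaperone, was at 6.99, 24.6, 3.11 and 33.1 CPM in control and 3.69, 180.9, 131.0 and 33.8 CPM in transgenic epithelial cells. The wall controls held 41.9, 72.0, 39.5 and 24 CPM and the transgenic wall samples 18.7, 12.3, 17 and 19.2 CPM. The epithelial groups overlapped, and all transgenic wall libraries lay below all control ones. The difference was 3.79 (interval 1.37 to 6.20, unadjusted p = 0.00428, adjusted p = 0.435), and without the 2 epithelial libraries that stand apart it was 3.86 with an adjusted p of 0.0373. Hspa1b, its near copy, with which it can share reads, had 2.78 (interval 0.71 to 4.84). How the epithelial cells were handled before lysis is not given, and its part in these values was not tested.

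The unfolded protein response and ATF4 genes, which expand folding capacity in the endoplasmic reticulum, had a median change of -0.35 in epithelial cells and -0.08 in wall. Of 17 genes 9 were lower and 2 higher in transgenic epithelial cells at an unadjusted p below 0.05, beside 10.2% and 5.45% of all genes, and 1 was lower in wall. The epithelial groups did not overlap for 6 genes that were lower and 1 that was higher, beside 4.19% and 2.22% of all genes. The median difference was -0.25, with 3 genes below and 1 above 0 at an unadjusted p below 0.05, beside 5.19% and 2.79%. Ero1l, an oxidase that forms disulfide bonds, was at 59.5 to 98.2 CPM in control and 44.7 to 58.1 CPM in transgenic epithelial cells, and at 56.8 to 79.2 and 81.9 to 100.1 CPM in wall. It did not overlap in either tissue and lay in opposite directions, and the difference was -0.86 (interval -1.34 to -0.37, unadjusted p = 0.00187, adjusted p = 0.343). Dnajb9, a chaperone partner of the reticulum, was at 32.6 to 56.5 CPM in control and 17 to 25.8 CPM in transgenic epithelial cells, without overlap, and had a log2 change of -0.00 in wall. Its difference was -1.03 (interval -1.71 to -0.35, adjusted p = 0.435). With GC correction the differences of Ero1l and Dnajb9 were -0.61 and -0.69.

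Among immune genes the values furthest from 0 belonged to a few genes. Mx1, an interferon-induced gene, was at 95.7, 111.9, 21.9 and 77.5 CPM in control and 12.1, 15.5, 14.3 and 20.8 CPM in transgenic epithelial cells. In wall it was between 1.30 and 3.59 CPM in all 8 libraries. It fell in transgenic epithelial cells (log2 change -2.30, adjusted p = 0.0345 in edgeR's test), with control replicate 3 close to the transgenic range, and the wall groups overlapped. The difference was -2.16 (interval -3.44 to -0.88, unadjusted p = 0.00247, adjusted p = 0.407), and without the 2 epithelial libraries that stand apart it was -2.37 with an adjusted p of 0.0373. Over the 24 interferon-stimulated genes that include it the median difference was 0.11, and 14 were above 0. At an unadjusted p below 0.05, 1 lay on each side, beside 2.79% of all genes above and 5.19% below 0. Bst2, a protein that tethers viruses to the cell, was the 1 above 0, at 0.64 (interval 0.10 to 1.17). Nos2, the inducible nitric oxide synthase, was at 7.69, 10.3, 13.7 and 6.50 CPM in control and 1.28, 0.676, 1.59 and 4.83 CPM in transgenic epithelial cells, and at 1.80 to 3.84 CPM in all wall libraries. It fell in transgenic epithelial cells (log2 change -2.23, adjusted p = 0.0494), and the difference was -2.08 (interval -3.49 to -0.67, adjusted p = 0.445). It was the 1 gene of the 12 antimicrobial and defence genes at an unadjusted p below 0.05 in the difference, beside 7.98% of all genes. Pla2g2a, a secreted phospholipase, had 2.60 (interval -0.04 to 5.23). That value for Pla2g2a was 0.62 with limma voom, and wall control replicate 2, at 23.1 CPM, stood above the 3 other wall controls (0.543 to 4.09 CPM). Of 14 interferon-gamma-induced GTPases 11 had a difference below 0 (median -0.37). Gbp9 had 33, 27, 13 and 9 counts in control and 9, 2, 0 and 7 counts in transgenic epithelial cells, and a difference of -2.09 (unadjusted p = 0.026), and Gbp6 had -1.17.

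Markers of the cell types in the samples were read for their own differences. Of 13 pan-epithelial markers 11 had a difference above 0, with a median of 0.20, and 1 had an unadjusted p below 0.05, beside 7.98% of all genes. That was Cdx2, the homeobox factor of intestinal identity, at 146.5 to 345.7 CPM in control and 248.5 to 404.6 CPM in transgenic epithelial cells and at 16.1 to 53.7 and 13.3 to 18.4 CPM in wall. The difference was 1.30 (interval 0.23 to 2.38, adjusted p = 0.563), and wall control replicate 2, at 53.7 CPM, stood far above the 3 other wall controls. Cdx1, its relative, had 0.36 (0.17 with GC correction), and Epcam, the adhesion molecule used to mark epithelium, 0.02 (interval -0.59 to 0.63). The 14 absorptive colonocyte markers had a median of 0.25 and the 11 goblet cell markers -0.05, with none of the 25 at an unadjusted p below 0.05. Scnn1b, a sodium channel subunit, had -0.97 and Slc34a2, a phosphate transporter, 1.73 (0.84 without epithelial transgenic replicate 1 and 2.89 without both epithelial libraries that stand apart). In the goblet list Atoh1, the secretory lineage factor, had 0.55. The listed entry named Clca1 (chr3:144730316-144760739) had 0.74, at a mean of 15.57 CPM in control epithelial cells.

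Markers of other cells were low but present in the epithelial samples. Smooth muscle and pacemaker markers had a median difference of 0.32, with 9 of 13 above 0, and endothelial markers 0.27, with 9 of 12 above 0. Myh11, smooth muscle myosin, was at 3.35 to 11 CPM in control and 3.08 to 18.8 CPM in transgenic epithelial cells, against 1824 to 3115 CPM in wall. Synpo2, an actin-binding protein of muscle, had a difference of 1.61 (interval 0.22 to 3.0, unadjusted p = 0.0255) from 3 to 48 counts per epithelial library, and 1.05 with limma voom, and Des, desmin, had 1.13. Pecam1, an endothelial adhesion molecule, had 0.42 (interval -0.65 to 1.48, and 0.73 without epithelial transgenic replicate 1), Eng 1.06 and Egfl7 0.92, and none of the endothelial genes had an unadjusted p below 0.05. No gene of the marker lists passed the threshold, and the part of these cells in the other differences was not tested. The lists not described one by one had median differences between -0.46 for macrophage markers and 1.85 for B and plasma cell markers, and none of their genes passed.

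The 10 genes below 0 with the smallest p began with a long non-coding RNA and a set of genes of low count. Tug1, that RNA (chr11:3639794-3648808), was at 107.3, 97.4, 90.3 and 101.2 CPM in control and 66.0, 58.4, 52.7 and 55.0 CPM in transgenic epithelial cells. Wall levels were 101.6, 101.6, 104.3 and 121.4 CPM without and 107.8, 109.8, 130.6 and 146.5 CPM with the transgene. It fell in epithelial cells without overlap (log2 change -0.77, adjusted p = 0.019 in edgeR's test) and overlapped in wall, where the change was 0.21. The difference was -0.98 (interval -1.35 to -0.61, adjusted p = 0.161). It was -0.58 after a correction for GC content, a size over 1.5 times smaller. Fkbp7, a prolyl isomerase of the endoplasmic reticulum, had 69, 83, 20 and 47 counts in control and 8, 4, 1 and 7 counts in transgenic epithelial cells, while wall libraries were all between 6.15 and 8.17 CPM. Pooled, controls were 11.5-fold above transgenic epithelial cells, with a 95% counting interval of 7.28 to 19.2. The difference was -3.71 (interval -5.10 to -2.32, adjusted p = 0.161), and in DESeq2 its adjusted p was 5.07e-06. Ccdc88a, which encodes the actin-binding protein girdin, had 10, 14, 5 and 10 counts in control and 1, 0, 0 and 0 in transgenic epithelial cells, a pooled ratio of 41 with a 95% counting interval of 6.94 to 1660. In wall Ccdc88a was at 3.62 to 6.24 CPM, and the groups overlapped. BC037032 had 53 counts in control and 2 in transgenic epithelial cells (pooled ratio 27.9, interval 7.34 to 236), and overlapped in wall. The fitted values of these 2 genes, -4.95 and -5.09, depend on the prior count, and the intervals on pooled counts cover counting error only.

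The other 6 were more abundant or leaned in both tissues. Nipal2, a magnesium transporter family member, was at 49.3 to 54.8 CPM in control and 39.8 to 49.5 CPM in transgenic epithelial cells and at 19.3 to 24.3 and 27.9 to 34.7 CPM in wall. The wall groups of Nipal2 did not overlap, those of epithelial cells overlapped by 1 library, and the difference was -0.84 (interval -1.19 to -0.50, adjusted p = 0.233). Gpr110, an adhesion receptor, had -2.56 (interval -3.68 to -1.43), with wall libraries at 4.20 to 7.06 CPM in controls and 10.5 to 24.4 CPM in transgenic samples. Hbp1, a transcriptional repressor, had -1.17, Asnsd1 -0.89 and Papd4, a poly(A) polymerase of the cytoplasm, -0.99, and A930001N09Rik had -1.97. With GC correction Papd4 was at -0.62, and Hbp1, Asnsd1 and A930001N09Rik were at -0.92, -0.70 and -1.63. Rpl34, a protein of the large ribosomal subunit, was at 156.1, 151.3, 76.2 and 178.4 CPM in control and 27.6, 29.8, 56.8 and 42.4 CPM in transgenic epithelial cells, and at 170.0 to 265.2 CPM in all wall libraries. It fell in epithelial cells (log2 change -1.84, adjusted p = 0.00888) and its difference was -1.59 (interval -2.34 to -0.83, adjusted p = 0.336). The 74 ribosomal protein genes that include it had a median difference of 0.12, with 48 above 0, and Rpl13a had 0.54. In epithelial cells 21 of the 74 were higher in transgenic libraries without overlap and 1 was lower, beside 2.22% and 4.19% of all genes. Ribosomal protein genes have many near copies, so the split of reads among them is uncertain.

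Above 0, the genes with the smallest p included several that were lower in transgenic wall. Stk40, a kinase-like protein (chr4:126103957-126141029), was at 68.2, 75.3, 87.2 and 77.6 CPM in control and 140.0, 102.5, 125.4 and 115.1 CPM in transgenic epithelial cells. Among wall libraries, controls had 121.9, 162.8, 134.9 and 87.8 CPM and transgenic ones 94.5, 76.3, 86.7 and 85.0 CPM. It did not overlap in epithelial cells and overlapped in wall through transgenic replicate 1 and control replicate 4. The difference was 1.22 (interval 0.73 to 1.70, adjusted p = 0.201), and DESeq2 gave an adjusted p of 0.00313. Atf5, a stress-responsive transcription factor, was at 10.5, 12.9, 16 and 18.5 CPM in control and 29.1, 52.6, 36.3 and 43.0 CPM in transgenic epithelial cells, and at 21.9 to 29.8 CPM in all wall libraries. It rose in epithelial cells (log2 change 1.48, adjusted p = 0.00788 in edgeR's test), and its difference was 1.36 (interval 0.79 to 1.92, adjusted p = 0.235). Lmna, which encodes lamins of the nuclear envelope, was at 408.3 to 763.8 CPM in control and 335.4 to 403.0 CPM in transgenic wall, without overlap, and had a difference of 0.98 (interval 0.48 to 1.48). Shb, an adaptor protein, had 1.33, Fads3, a fatty acid desaturase family member, 1.06, D8Ertd82e 0.99, and the nucleolar proteins Bysl and Ccdc86 0.91 and 1.34. Rn4.5s, a small RNA gene with many copies, was at 1.12 to 1.95 CPM in control and 3.59 to 7.67 CPM in transgenic epithelial cells and had 2.43. Vit, which encodes vitrin, had 0, 2, 0 and 1 counts in control and 2, 9, 18 and 11 counts in transgenic epithelial cells, so its fitted 3.99 rests on few counts. Ccdc88a was called in 8 of the 33 alternatives that give a difference, Tug1, Fkbp7 and BC037032 in 7, Stk40 in 6, and Atf5 and Rpl34 in 5.

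**Figure D4:**
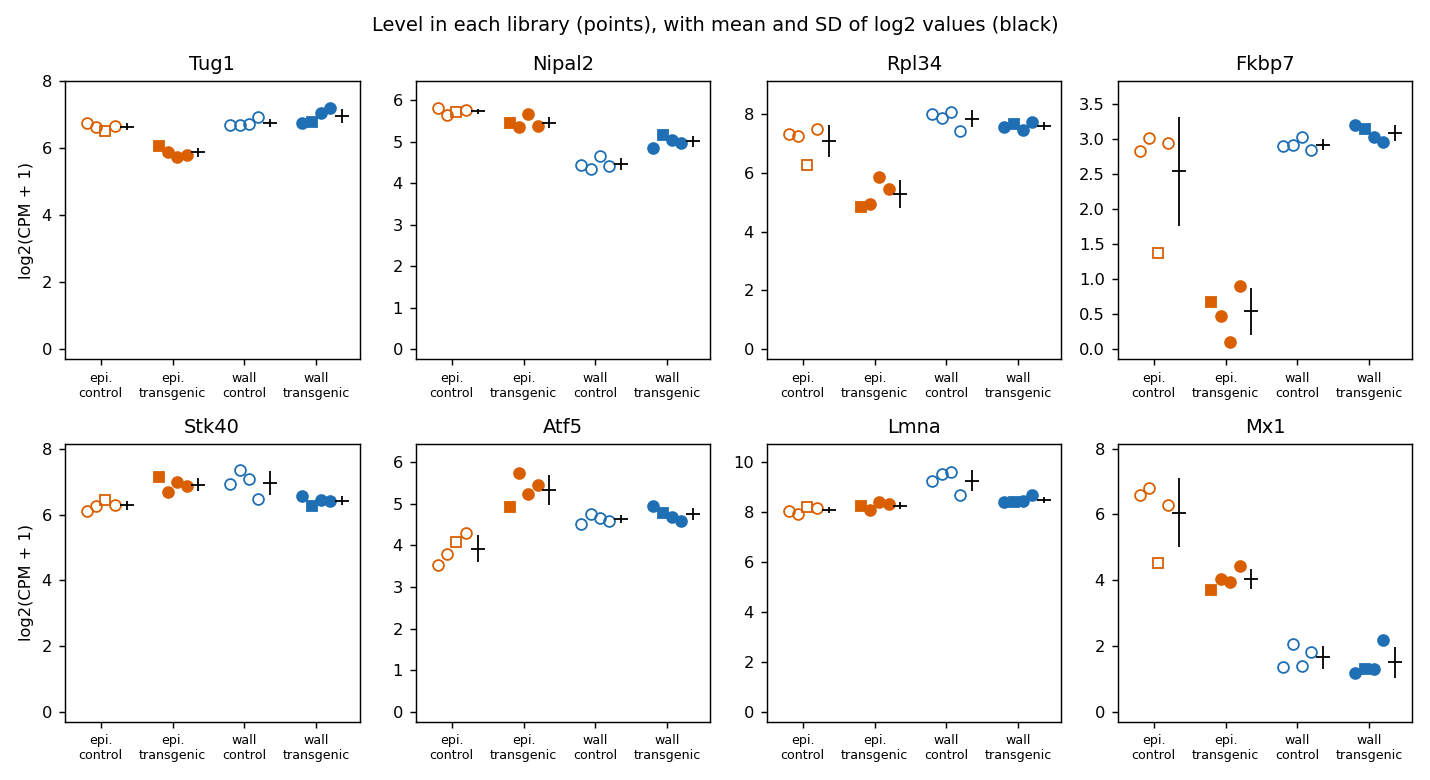
Level of 8 genes in each of the 16 libraries as log2(CPM + 1), drawn as in the plot of the pathway genes. Tug1, Rpl34, Fkbp7 and Mx1 are lower in transgenic than in control epithelial cells and overlap in wall, Atf5 is higher in transgenic epithelial cells, and Lmna is lower in transgenic wall.

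The 11 genes whose groups did not overlap in either tissue and lay in opposite directions were singled out after their values were seen. Higher in transgenic epithelial cells and lower in transgenic wall were 3 genes (0.0199%), Bysl, Fads3 and Heatr2, with differences of 0.91, 1.06 and 0.65. Lower in epithelial cells and higher in wall were 8 genes (0.0531%). They were Adss, a purine synthesis enzyme, the entry named Atg4a (chr3:103643953-103646068), Vti1a, a vesicle fusion protein, Dclk3, Zxda, Gm16515, 0610010B08Rik and Ero1l. Their differences ran from -2.14 for Dclk3 to -0.53 for Vti1a, their unadjusted p from 0.000339 for Adss to 0.0476 for Zxda, and none passed the threshold (adjusted p from 0.336 to 0.619). The 11 genes were picked by the separation of their libraries, so these p-values are no further test of them. For 84 genes (0.557%) the groups did not overlap in either tissue and lay in the same direction.

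A feature that the genes on each side shared was the base composition of their transcripts. Median GC content was 55.1% for the 420 genes above 0 and 44.9% for the 783 below 0 at an unadjusted p below 0.05, beside 50.5% for all genes tested (a value was found for 99.5% of the genes). Transcript lengths were closer, with medians of 2660, 3126 and 2750 bases. With genes split by GC content into 5 bins of equal size, the median difference went from -0.26 in the lowest bin (29.8% to 44.7% GC) to 0.15 in the highest (56% to 72.8% GC). In epithelial cells the medians went from -0.30 to 0.14, while in wall they stayed between -0.04 and 0.00. In each library the lowest bin was set against the highest, as a difference of median log2(CPM + 1): it was 0.16, 0.12, -0.26 and 0.10 in control and -0.36, -0.43, -0.39 and -0.37 in transgenic epithelial cells. All 4 transgenic epithelial libraries lay below all controls and below all wall libraries, which ran from -0.23 to 0.09, and control replicate 3 was the control closest to them. With offsets fitted to GC content in each library, edgeR's count of genes past the threshold went from 107 to 7 in epithelial cells and stayed at 0 in the difference, where 956 genes in place of 1203 had an unadjusted p below 0.05. GC content moved with genotype among these epithelial libraries, and its part in the differences of single genes beyond that correction was not tested.

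**Figure D5:**
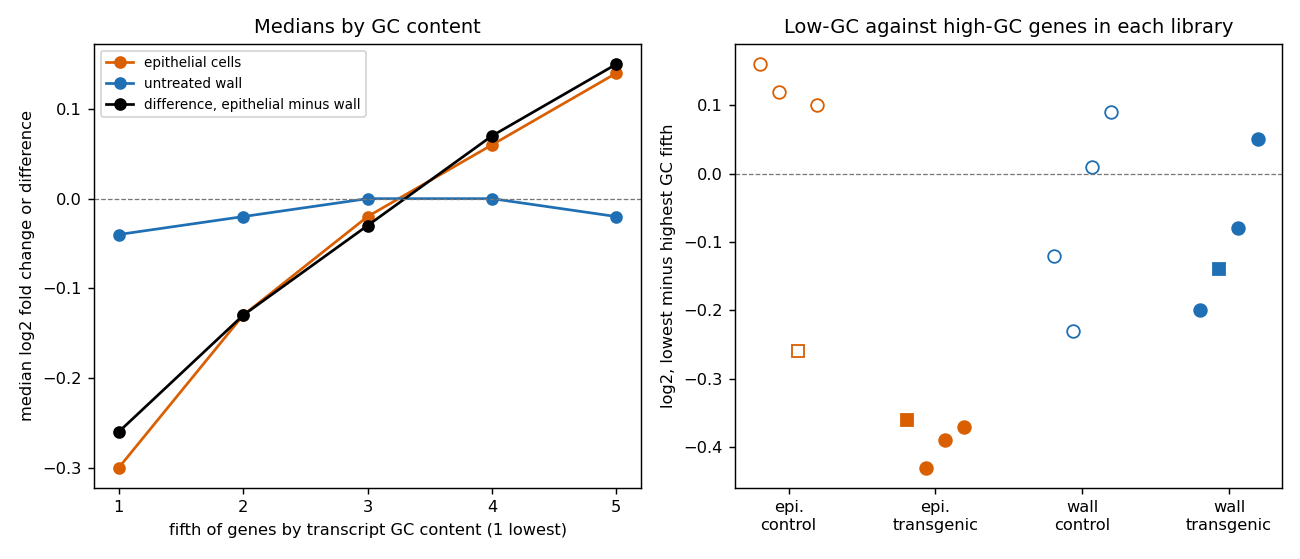
Left, median log2 fold change in each tissue and median difference (y axis, log2 units) by bin of transcript GC content (x axis, 5 bins of equal size); right, median log2(CPM + 1) of the lowest minus the highest GC bin in each library, with symbols as in the plots of single genes. The epithelial medians run from -0.30 to 0.14 while those of wall stay near 0, and the 4 transgenic epithelial libraries lie at -0.36 or below.

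Genes named Zfp and a number encode zinc finger proteins, a set made by name and not by function, and were singled out after the values were seen. They made up 41 of the 783 genes below 0 (5.24%) and 2 of the 420 above 0 (0.476%) in the difference, beside 2.12% of all genes tested. Of the genes at an unadjusted p below 0.05 in wall, they were 24 of the 558 higher and 1 of the 464 lower in transgenic samples. In epithelial cells they were 21 of the 821 higher (2.56%) and 54 of the 1539 lower (3.51%) at that p. The 320 tested had a median GC content of 46.1% and median changes of -0.15 in epithelial cells and 0.12 in wall, and a median difference of -0.29. The GC bin that holds their median GC content had a median difference of -0.13, and no bin had a wall median above 0.00. The part of GC content in that value was not tested.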

How the data were processed

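RNA from epithelial cells and colon wall was sequenced, and the authors made for each of 30383 RefSeq transcripts an estimated count and a TPM value, deposited as such, per the file headers. The authors' notes name RSEM 1.2.11, FastQC and the build mm10, per the submitters' processing notes; the sources used here do not give the aligner or strand setting. Of the estimated counts 39.2% were not whole (tolerance 1e-06). They were summed to 23329 gene symbols and rounded. The deposited TPM values were read as a second level and are not printed.

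Genes with low counts were removed with filterByExpr (15073 kept, 8256 left out), libraries were scaled by TMM, and edgeR 4.0.16 in R 4.3.3 fitted the 4 groups together with a quasi-likelihood test, Benjamini-Hochberg adjustment over all genes kept, and a threshold of 0.05 (limma 3.58.1 and DESeq2 1.42.0 served as alternatives). The difference test was run on simulated counts of 14931 genes. It recovered 14 of 100 genes changed 2-fold and 56 of 100 changed 4-fold, with 1 false call. Intervals on pooled counts are 95% and cover counting error only, with a floor of 3 counts per group. No pair of libraries in a group agreed within sampling noise. The members and gene lists were chosen with earlier results of these data known. Named genes are the 10 with the smallest p on each side of 0, a fixed set of NRF2, clock and marker genes, and in each list described the members past the threshold or, where none passed, the 2 with the smallest p in the difference. Others are said to be chosen after their values were seen. Alternatives changed the scaling, filter, tool, weights, block, depth and libraries, and those with GC content or with each tissue fitted alone were chosen after seeing the data.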

Additional observations from a re-analysis of the deposited data

Results flagged for a closer look

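In 45 of 404 groups of 4 libraries (11.1%), for a named gene or the summed level of a gene list, 1 library lay far from the other 3 by Dixon's criterion, where chance gives about 1 in 20. All values are CPM.

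Epithelial control replicate 3 was far above the other controls for Gsta1 (52.1), Srxn1 (227), Epcam (1855), Ces1g (240), Cdx1 (535) and the phosphate transporter Slc34a2 (22.8). It was far below them for Fkbp7 (1.59), Abcc4 (10.7) and the entry named Clca1 (4.15). Its summed levels were high for glutathione synthesis (788), glutathione transferases (3264), quinone, carbonyl, heme and iron genes (7784), NADPH producers (2001), export pumps (1836) and other drug enzymes (9990). They were also high for pan-epithelial markers (26720), absorptive colonocyte markers (21030) and interferon-stimulated genes (762), and low for immediate early and heat shock genes (4178).

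Epithelial transgenic replicate 1 was high for Gsta1 (205), Epcam (1768), Ces1g (547), Psmb5 (131), absorptive colonocyte markers (23520) and interferon-stimulated genes (1005). It alone held reads of Ccdc88a (0.0752) and BC037032 (0.15) among the transgenic epithelial libraries. Hlf was high in epithelial control replicate 2 (2.03) and transgenic replicate 4 (0.248), and Dbp in transgenic replicate 3 (42.2).

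Wall control replicate 2 was high for Fads3 (48.7), Slc3a2 (108), Chac1 (5.43), Me1 (37.4), Pla2g2a (23.1) and Cdx2 (53.7), and low for Cul3 (95.5) and Scnn1b (6.07). Wall control replicate 4 was high for Tug1 (121) and low for ribosomal proteins (38910). Wall transgenic replicate 2 was high for Asnsd1 (51.9) and low for Abcc4 (30.5). Rn4.5s was low in wall transgenic replicate 3 (1.55), and Mx1 (3.59) and Atoh1 (52.5) were high in replicate 4.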

How the results depend on the processing

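The count of genes whose difference passed, 0 in edgeR's test, was also 0 with DESeq2's size factors, without the filter, with voom, with voom and weights per tissue, with voom and a file number as a block, with the leading file number as a term, after thinning, and with GC correction. It was 79 in DESeq2, 827 with voom and quality weights, 5 without the second leading file number, 5 with all 24 libraries, 70 without the 2 epithelial libraries that stand apart (10 with GC correction) and 17 without the 3. Leaving out 1 library gave 0 to 12, the highest without wall control replicate 4, and 9 and 3 without epithelial transgenic replicate 1 and control replicate 3. The cause was not tested.

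The epithelial count of 107 became 40 without the filter, 712 in DESeq2, 7 with voom, 1504 with quality weights, 0 with voom and weights per tissue, 7 with voom and the file number as a block (as with voom alone), 314 with all 24 libraries and 70 after thinning. It was 984 without the 2 libraries (267 with GC correction), 800 without the 3, 7 with GC correction and 0 with each tissue fitted alone. Leaving out 1 library gave 4 (epithelial control replicate 2) to 865 (control replicate 3), with 482 without transgenic replicate 1. The wall count of 0 became 162, 19, 2798, 95 and 19 in the DESeq2, voom, quality weight, per-tissue weight and file number block fits, of which all but the first use voom. It was 11 with the leading file number as a term, 145 without the second leading number, 15 with all 24 libraries, 85 without the 2 libraries (104 with GC correction), 50 without the 3, and 10 with the tissue fitted alone. Leaving out 1 library gave 0 to 96 (wall control replicate 4).

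With the replicate number as a block, 0 genes passed in the difference, 22 in epithelial cells and 0 in wall, and with GC correction in the same fit 0 passed in epithelial cells. Over 24 pairs with the same number, deviations correlated from -0.72 to 0.41 (median -0.02), and 7 were over 0.1. Over 72 pairs with other numbers they ran from -0.66 to 0.84 (median 0.02), and 24 were over 0.1. The lowest and the highest value both involve epithelial transgenic replicate 1, which stands apart, so these correlations cannot decide whether the numbers pair libraries.

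Of 80 named genes 74 kept the sign of their difference in every setting run. Slc7a11 (-0.24) became 0.74 with voom, 0.73 with voom and weights per tissue or a file number block, 0.15 with GC correction, 0.19 with GC correction and the replicate block, and -0.57 to 0.13 with 1 library left out. Without the 3 libraries Gsta3 became -0.28, Gstm1 -0.09 and Abcc4 -0.40. Abcc4 was -0.09 without the 2 libraries, -0.06 with GC correction as well, and from -0.03 (without wall transgenic replicate 2) to 0.45 with 1 library left out. Srxn1 ran from -0.26 (without epithelial transgenic replicate 1) to 0.94 with 1 library left out. Epcam (0.02) was -0.02 with voom, weights per tissue, file number block or GC correction with replicate block, -0.01 with the replicate block or without the 2 libraries, -0.05 with GC correction as well, and -0.17 to 0.20 with 1 library left out. Library depth limits low genes in epithelial cells.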
